A study of Mus musculus with 3 samples.

Results

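TRIM (tripartite motif) proteins are a large family of ubiquitin ligases. The members described here are the genes whose symbol is Trim followed by a number and that have at least 1 transcript annotated as protein_coding: 68 of the 21901 mouse genes with such a transcript. A further gene, Trim30e-ps1, matched by symbol and was left out because it has no protein_coding transcript (69 symbols matched in all). The deposited data come from 3 libraries of a single group: bone-marrow-derived macrophages of C57BL/6J mice given 100 ng/ml Lipid A for 12 hours, washed and rested for 12 hours, and given 100 ng/ml Lipid A again for 50 minutes. Lipid A is the part of bacterial lipopolysaccharide that its receptor recognises. RNA was taken from the chromatin fraction, which is rich in RNA still being made, and total RNA-seq libraries were built after ribosomal depletion. The starting amount differed, with 1 µg in replicate 1, 250 ng in replicate 2 and 500 ng in replicate 3. The labels name a single donor throughout and never call the replicates separate animals or cultures. SDs thus measure only the spread between these samples, which may be technical, and p-values rest on these samples alone. No unstimulated or singly stimulated library is among those used here, so levels could be described and no response to Lipid A could be tested.

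A typical TRIM protein carries a RING domain, which recruits an E2 ubiquitin-conjugating enzyme, followed by B-box zinc fingers and a coiled coil through which the proteins pair. The C-terminal domain differs between classes and chooses the target: most often a PRY-SPRY domain, in other members a PHD-bromodomain pair that reads chromatin, NHL repeats that bind RNA or protein, or a COS box that binds microtubules. Many PRY-SPRY members are induced by interferon, and several act in antiviral defence, either on the RNA and DNA sensors and their kinases or directly on viral capsids. Mouse chromosome 7 carries an expanded cluster of such genes, the Trim5, Trim6, Trim12, Trim30 and Trim34 group.

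By mean alignment-based TPM, a level corrected for length, the highest TRIM genes were Trim30a, Trim30d, Trim12a, Trim25, Trim26, Trim34a and Trim21. The RefSeq promoter window of each of them (build GRCm38.p6, 250 bases before to 50 after the annotated start) held the core of the interferon-stimulated response element. The next gene, Trim30c, did not hold it, so the list ends just before the first gene without it. Which genes are on the list also depends on the measure of level. The letters searched were GAAANNGAA on either strand, where N is any base, and overlapping matches were counted separately. Windows of 4 of these genes are shown because they span the chromosome 7 cluster and its outside, with the matched bases in capitals. The windows lie at chr7:104465144-104465443 (minus strand) for Trim30a, chr7:104507800-104508099 (minus strand) for Trim30d, chr11:88999153-88999452 (plus strand) for Trim25 and chr7:102565433-102565732 (minus strand) for Trim21, each printed 5′ to 3′ on the gene's strand.
Trim30a: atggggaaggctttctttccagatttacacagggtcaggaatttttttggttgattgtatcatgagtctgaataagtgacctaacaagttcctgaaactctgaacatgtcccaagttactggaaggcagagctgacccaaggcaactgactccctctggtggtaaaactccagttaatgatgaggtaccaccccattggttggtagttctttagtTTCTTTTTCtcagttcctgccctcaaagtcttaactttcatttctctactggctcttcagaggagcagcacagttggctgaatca
Trim30d: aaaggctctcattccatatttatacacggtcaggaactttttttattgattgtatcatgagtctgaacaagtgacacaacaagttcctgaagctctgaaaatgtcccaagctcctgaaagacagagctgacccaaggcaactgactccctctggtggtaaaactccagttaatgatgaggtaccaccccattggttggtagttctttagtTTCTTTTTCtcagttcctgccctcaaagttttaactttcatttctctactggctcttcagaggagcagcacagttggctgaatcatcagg
Trim25: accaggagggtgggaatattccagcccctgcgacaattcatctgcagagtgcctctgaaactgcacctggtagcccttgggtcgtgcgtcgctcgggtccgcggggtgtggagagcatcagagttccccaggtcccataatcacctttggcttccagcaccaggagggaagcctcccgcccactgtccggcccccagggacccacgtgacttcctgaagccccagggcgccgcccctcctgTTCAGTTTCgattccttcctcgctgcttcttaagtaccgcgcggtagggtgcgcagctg
Trim21: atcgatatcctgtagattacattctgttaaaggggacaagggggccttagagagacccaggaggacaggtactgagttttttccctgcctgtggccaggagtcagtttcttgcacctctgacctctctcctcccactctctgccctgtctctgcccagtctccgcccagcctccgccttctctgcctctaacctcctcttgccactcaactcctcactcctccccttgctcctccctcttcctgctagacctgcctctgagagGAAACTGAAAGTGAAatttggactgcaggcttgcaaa

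In Trim30a and Trim30d the match lay 35 and 40 bases before the start, in the opposite orientation, and the windows as a whole were 90.8% identical. In Trim25 the match began 9 bases before the start. Trim21 held overlapping matches 13 and 19 bases after it. Trim26 held a pair of matches 159 and 153 bases before its start, and Trim12a and Trim34a held theirs 11 bases after it. Among the 53 TRIM genes with a window in the RefSeq table, 12 (22.6%) held the motif, against 9.76% of all 27025 genes in that table. Counted by window the motif was in 13 of 67 TRIM windows (19.4%), against 8.56% of all 32851. The remaining TRIM genes with a match were Trim12c, Trim5, Trim7, Trim2 and Trim34b, so 11 of the 25 matched genes that were detected held it, and 1 of the 28 that were not. The same split by detection was not made over all genes, so it cannot be called particular to TRIM genes. Paralogous windows share sequence by descent (82.8% identity between Trim12c and Trim5, 72.9% between Trim12a and Trim12c), so these genes are not independent cases and no test was made. A match of these letters is a description and was not tested as a binding site. Trim30c, the eighth highest TRIM gene, had no match in its window. In the read-based tables its mean of 76.3 TPM stood above those of Trim34a (76 TPM) and Trim21 (71.2 TPM). The highest 7 by that measure were therefore not all genes with a match. The same held with protein-coding transcripts alone. There Trim30c (59.6 TPM) and Trim56 (24.3 TPM), both without a match, stood above Trim21 (17.5 TPM) and Trim26 (11.2 TPM). By CPM, which is not corrected for length, Trim56 ranked 790 of all genes, above Trim34a (799) and Trim21 (2045). Trim30a, Trim30d, Trim12a and Trim25 stayed above Trim30c by each of these measures.

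A gene was called detected when it reached 1 TPM (the authors' length-corrected relative abundance of transcripts) in every library. By that rule 35 of the 68 TRIM genes (51.5%) were detected, against 39.4% of all 21901 genes with a protein_coding transcript. Over all members the median was 1.8 TPM, against 0.373 TPM over all genes, while among detected genes it was 11.2 TPM for TRIM genes and 10 TPM for all. Of the TRIM genes 12 (17.6%) had 0 counts in every library, against 31.7% of all genes. At the upper end, 8 TRIM genes (11.8%) lay among the highest 5% of genes. The family summed to 1379, 1183 and 1168 TPM in replicates 1, 2 and 3 (1243 ± 118, SD, n = 3), which was 0.288% ± 0.0413 of all expected counts. The 5 highest members held 58.5% ± 3.43 of that TPM. Ordered by mean TPM, the detected members made 34 pairs of neighbours, of which 4 had ranges that did not overlap: Trim30a above Trim30d, Trim30d above Trim12a, Trim35 above Trim30b, and Trim12c above Trim24. In bulk RNA of this kind, fewer cells of a type and less RNA per cell cannot be told apart.

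**Figure D1:**
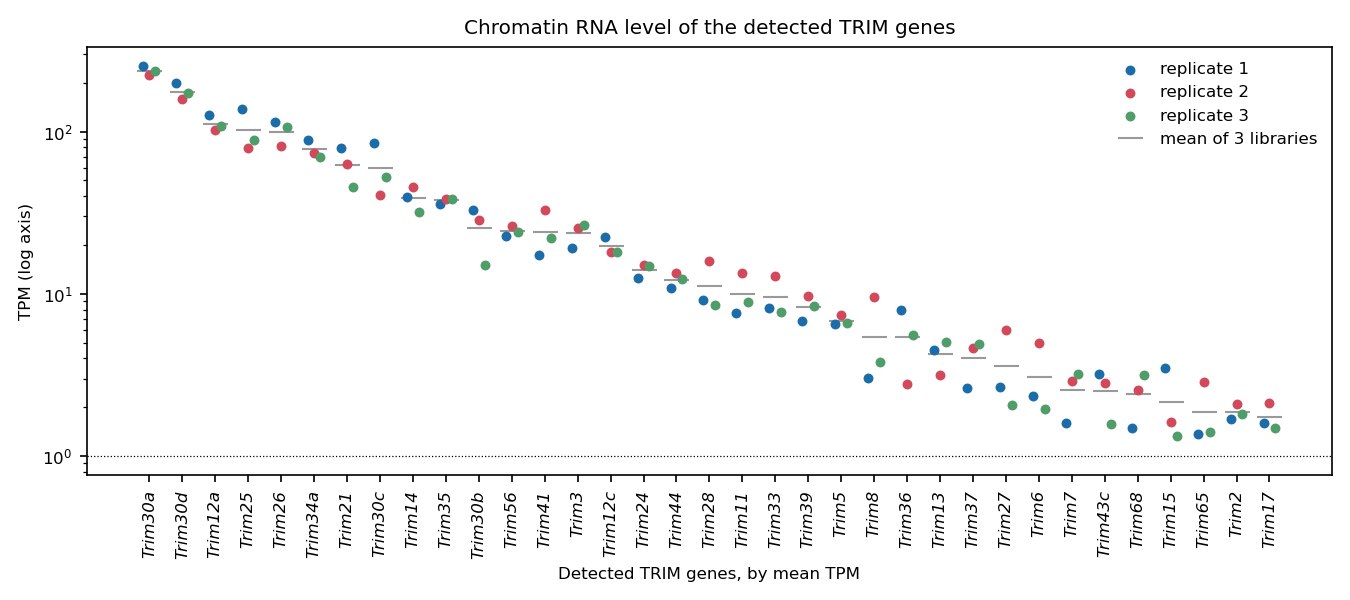
TPM of the 35 detected TRIM genes in each of the 3 libraries (log axis), 1 point per library, ordered by mean. Levels run from 237 TPM for Trim30a to 1.74 TPM for Trim17, and the ranges of 30 of the 34 pairs of neighbours in this order overlap.

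Replicate 1 held 13897176 expected counts, replicate 2 held 19597343 and replicate 3 held 19348626. In each library 37 TRIM genes reached 1 TPM, and log2(TPM + 1) of the 68 genes correlated between libraries with a Pearson r across genes of 0.978 to 0.990. The libraries differed by more than sampling noise (chi-square per degree of freedom 41.7 to 111), so none was a copy of another. All 8 macrophage markers were detected, with a summed level of 1114 to 1357 TPM over the libraries. Of the neutrophil, B cell, T and natural killer cell and dendritic cell markers none was detected (0 of 8, 0 of 5, 0 of 6 and 0 of 5) in the alignment-based tables, and the erythroid and the fibroblast and endothelium lists had 1 detected gene each, Alas2 of 5 and Kdr of 6. Read-based values put 1 neutrophil marker (Cxcr2, mean 4.05 TPM), 1 T cell marker (Cd3d, 15.7 TPM), 1 dendritic cell marker and 2 of the fibroblast and endothelium markers above the detection threshold. Both Cxcr2 and Cd3d had 0 TPM by alignment.

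Replicate 1 gave the highest value for all 8 TRIM genes among the highest 5%, whereas 468 of all 1095 genes at that level (42.7%) were highest there. Over all 35 detected TRIM genes replicate 1 was highest for 13, replicate 2 for 16 and replicate 3 for 6. Over all detected genes these shares were 22.4%, 55.7% and 21.9%. Replicate 1 was the library with the largest starting amount and the fewest counts, and the part of either in this pattern was not tested.

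Trim30a had the highest level of the family, at 252, 224 and 235 TPM in replicates 1, 2 and 3 (237 ± 14.2, SD, n = 3), which placed it at rank 188 of all genes with a protein_coding transcript. In mouse macrophages its protein is known as an interferon-inducible brake on Toll-like receptor signalling that promotes loss of the adaptors TAB2 and TAB3. Its 3 values lay close together (coefficient of variation 6%), and the lowest of them was above every value of the other TRIM genes. Trim30d, its neighbour on chromosome 7, followed at 199, 158 and 172 TPM. Trim30c had 85, 40.9 and 52.8 TPM, and Trim30b 32.7, 28.7 and 15.1 TPM. The order Trim30a, Trim30d, Trim30c, Trim30b therefore held within every library, and the ranges of these 4 genes did not overlap. The 4 genes together summed to 499 ± 62.2 TPM. With protein-coding transcripts alone, Trim30a had 202, 176 and 197 TPM in replicates 1, 2 and 3. That range overlapped the range of Trim30d, whose transcripts are all protein_coding.

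The mouse relatives of primate TRIM5, a cytosolic restriction factor that binds retroviral capsids, spanned a wide range. Trim12a had 126, 102 and 108 TPM, whereas Trim12c had 22.5, 18.2 and 18 TPM and Trim5 6.48, 7.42 and 6.63 TPM, with no overlap between any of them. Trim34a, whose human counterpart also acts on retroviral capsids, had 88.9, 74 and 70 TPM. Its near copy Trim34b had 0.57, 0.76 and 0.44 TPM, below detection in every library. Trim6, at the edge of the cluster, had 2.34, 4.98 and 1.95 TPM, with replicate 2 above the others.

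These 10 genes form an unbroken cluster on chromosome 7 (mm10, 104218793 to 104507849, 289057 bases), and 9 of them were detected. The cluster held 59.2%, 55.7% and 58.3% of all TRIM TPM in replicates 1, 2 and 3 (57.7% ± 1.8, SD, n = 3), or 719 ± 85.1 TPM. No other protein-coding gene lies within it. In the 500000 bases on either side lie 56 other genes with a protein_coding transcript, 43 of them olfactory receptor genes, and 0 of the 56 were detected. High and low members stood side by side within the cluster: Trim34b lies between Trim12a and Trim12c, and Trim5 between Trim34a and Trim12a.

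**Figure D2:**
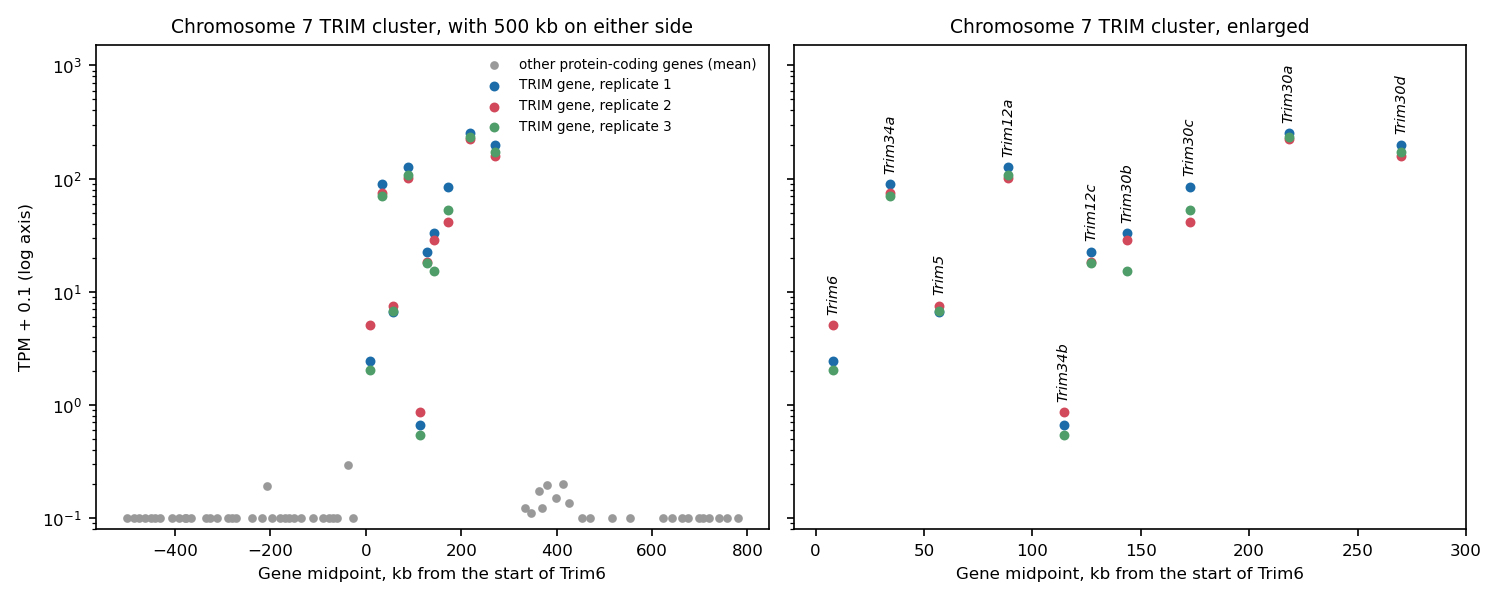
TPM + 0.1 (log axis) against the midpoint of each gene, in kb from the start of Trim6, for the chromosome 7 cluster with 500 kb on either side (left) and enlarged (right). Coloured points are the TRIM genes in each library and grey points the means of the other protein-coding genes; 9 of the 10 TRIM genes and none of the 56 flanking genes were detected.

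Differences between close relatives were taken within each library on the log2(TPM + 1) scale and tested over the 3 libraries with an exact two-sided sign-flip permutation test, whose smallest possible p is 0.25. All 8 pairs compared gave that p, and 0.25 after Benjamini-Hochberg adjustment, so no pair could pass a threshold in this design. Trim30a exceeded Trim30d by 0.43 ± 0.08, Trim30c by 2.04 ± 0.44 and Trim30b by 3.24 ± 0.55 (SD, n = 3). For Trim30b it was 2.60 ± 0.19 in the read-based tables. By alignment Trim30a was the higher in 3 of 3 libraries each time. With protein-coding transcripts alone Trim30a minus Trim30d was 0.12 ± 0.09. Trim12c minus Trim12a was -2.46 ± 0.06, the most even of the pairs, and -1.68 ± 0.20 with protein-coding transcripts alone. Trim34a minus Trim34b was 5.63 ± 0.21, a ratio of mean TPM of 132. That last ratio differed between the quantifications. In the read-based tables it was 24.7, and 69% of the 31-base words in Trim34b transcripts also occur in another gene, chiefly Trim34a; the part of this sharing in the difference was not tested.

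Outside the cluster, the highest innate immune members were Trim25 and Trim26. Trim25, the ligase that activates the RNA sensor RIG-I, had 137, 79.5 and 88.2 TPM (102 ± 31.2), with replicate 1 well above the others. Trim26, a ligase reported to act on the interferon factor IRF3, had 114, 81.6 and 106 TPM. Trim21, a cytosolic antibody receptor that directs antibody-coated virus to the proteasome, had 78.8, 63.1 and 45.4 TPM. Trim25 minus Trim21 was 0.69 ± 0.32 on the log2(TPM + 1) scale and positive in 3 of 3 libraries. With protein-coding transcripts alone it was 2.44 ± 0.24. The ranges of Trim25 and Trim26 overlapped, and Trim26 was the higher in replicates 2 and 3, so the pair could not be ordered.

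Among the innate immune and antiviral members 15 of 17 passed detection and the list's median was 24.3 TPM, whereas 20 of the 51 other members passed. The list was chosen with earlier results of these data known, so this contrast depends on that choice and was not tested. Trim14, a mitochondrial adaptor of RNA sensing, had 39.6, 45.3 and 32 TPM. Trim56, an antiviral ligase of the DNA and RNA sensing pathways, had 22.8, 26.1 and 23.9 TPM, all within a coefficient of variation of 7.06%. The rest were low. Trim8, which acts in NF-kappaB and cytokine signalling, had 3.01, 9.56 and 3.79 TPM. Trim13, anchored in the endoplasmic reticulum, had 4.49, 3.17 and 5.05 TPM. Trim27 had 2.68, 5.99 and 2.07 TPM, and Trim65, the ligase of the RNA sensor encoded by Ifih1, had 1.36, 2.85 and 1.41 TPM. Replicate 2 was highest for Trim8, Trim27 and Trim65, and without it the mean of Trim8 was 3.4 TPM (5.45 TPM over all 3 libraries) and that of Trim27 2.38 TPM (3.58 TPM over all). The members of this list that were not detected were Trim23 and Trim38. Trim23, whose ARF domain takes part in activating the kinase TBK1, missed the threshold in 1 library, at 0.6, 2.67 and 1.64 TPM. Trim38, a negative regulator of Toll-like receptor and interferon signalling, had 0, 4 and 1 expected counts, or 0, 0.18 and 0.05 TPM, and was as low in the read-based tables (mean 0.0878 TPM).

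The PHD-bromodomain class silences or tunes transcription from chromatin, and 3 of its 4 members were detected at moderate levels. Trim28, the corepressor that KRAB zinc finger proteins recruit to silence retroelements, had 9.18, 16 and 8.49 TPM. Trim24, a coregulator of nuclear receptors, had 12.6, 15 and 14.8 TPM, and Trim33, a regulator of Smad4, had 8.22, 12.8 and 7.74 TPM. Trim24 minus Trim33 was 0.54 ± 0.32 and Trim28 minus Trim33 0.19 ± 0.10 on the log2(TPM + 1) scale. With protein-coding transcripts alone Trim24 minus Trim33 was 0.03 ± 0.33. Trim28 was above Trim33 in 3 of 3 libraries on that scale, and below it when protein-coding transcripts alone were counted (-1.54). In the read-based tables Trim28 minus Trim33 was 0.05 ± 0.19, with Trim33 the higher in replicates 2 and 3. Trim66, the fourth member, known from testis, had 0.02, 0.06 and 0.06 TPM. Of 9 listed partners of the class in silencing, 8 were detected, against 39.4% of all genes with a protein_coding transcript. The list was chosen with earlier results of these data known, and this contrast was not tested. Among the 8 were Morc3 at 162 ± 30.5 TPM, Chd4 at 142 ± 17.7 TPM and Setdb1, the methyltransferase that TRIM28 recruits, at 13.7 ± 5.23 TPM. Cbx3, an HP1 protein, missed the threshold in replicate 1 with 0.85 TPM by alignment. In the read-based tables its mean was 18.1 TPM, and all 9 partners were detected there.

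Members of the remaining classes were mostly low or at 0. Of the NHL and filamin members 2 of 5 were detected. Trim3 had 19.1, 25.6 and 26.7 TPM and Trim2 1.68, 2.08 and 1.81 TPM, while Trim45 (0.36, 0.53 and 0.23 TPM) and Trim32 (0.12, 0.5 and 0.16 TPM) were below the threshold and Trim71, a stem cell gene, had 0 counts. Trim37, the MATH-domain member, had 2.63, 4.61 and 4.89 TPM. Of the transmembrane class Trim13 was detected and Trim59 was not (1.11, 0.38 and 0.82 TPM). The COS-box class had 1 detected member of 8, Trim36, at 7.93, 2.77 and 5.59 TPM. Trim46, of the same class, was at 2.28, 0.58 and 1.91 TPM and so fell short in replicate 2 alone.

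The PRY-SPRY class had 24 detected members of 38, and the median over all 38 was 2.54 TPM. Those not yet named included Trim35, the least variable detected member of the family, at 36, 38.2 and 38.6 TPM (coefficient of variation 3.74%). Trim41 had 17.4, 32.7 and 22.1 TPM. The others ran from Trim11 at 10 ± 3.07 TPM and Trim39 at 8.29 ± 1.49 TPM down through Trim7, Trim43c, Trim68 and Trim15 to Trim17. Trim15 was among the most variable at 3.48, 1.62 and 1.32 TPM (54.7%). Trim8 (65.6%), Trim27 (58.9%), Trim6 (53.3%) and Trim36 (47.6%) were the others with the widest coefficients of variation, and the median over detected members was 26.8%, against 22.7% over all detected genes. Trim44, which lacks a RING domain, had 10.9, 13.4 and 12.3 TPM.

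Near the threshold, the lowest detected members were Trim17 (1.6, 2.12 and 1.49 TPM), Trim2 and Trim65, and the highest not detected were Trim23, Trim46 and Trim62 (0.68, 1.15 and 0.8 TPM). Of the exon bases of Trim17, 19% overlap the gene Hist3h2a (mean 5.94 TPM) on the same strand. Of its 31-base words, 21.9% are shared with other genes, so the call of Trim17 is uncertain too. The mean was 1.74 TPM for Trim17 and 1.64 TPM for Trim23, and Trim23 and Trim46 each missed the threshold in a single library. The members below detection not given elsewhere, Trim16, Trim47, Trim43a, Trim69, Trim75, Trim72, Trim29, Trim50, Trim61 and Trim60, had means between 0.68 TPM for Trim16 and 0.0233 TPM for Trim60.

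Among 17 members known from muscle, neurons, red cell precursors, germ line or stem cells, 1 was detected, Trim43c, and 8 had 0 counts in every library. Trim43c had 3.2, 2.81 and 1.57 TPM. Of its 31-base words 71.8% are shared with other genes, and 38.6% of its exon bases lie opposite a noncoding gene, 9330159M07Rik, that had a mean of 16.3 TPM. No source used here says whether strand entered the counting, so this call is uncertain. The 8 genes at 0 were Trim54, Trim55 and Trim63, the ligases of the muscle sarcomere, Trim9 and Trim67 of neurons, Trim58 of red cell precursors, Trim42 of testis and Trim71. By alignment, 3 counts, the upper limit that a count of 0 allows, would correspond to at most 0.177 TPM for these genes (Trim54 in replicate 1). That figure covers counting error only and does not cover how reads were assigned: in the read-based tables Trim63 had a mean of 4.61 TPM, Trim67 had 0.832, 1.05 and 1.25 TPM in replicates 1, 2 and 3, and Trim9 and Trim71 had means of 0.469 and 0.285 TPM. The authors' upper credible bound of the posterior mean TPM also lay above 0.177 TPM for some of the 8 genes. It was highest for Trim9, at 1.45, 1.51 and 1.58 TPM in replicates 1, 2 and 3. The other members at 0 counts were Trim31, Trim40, Trim52 and Trim80. Of these, Trim52 had 28.4 TPM in the read-based tables, Trim80 had 0.00753 TPM, and Trim31 and Trim40 had 0 there too.

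A smaller group on chromosome 17 also held high and low members. Trim26 stood at 100 ± 16.8 TPM and Trim39 at 8.29 TPM, while Trim15 had 2.14 TPM, Trim10 0.0233 TPM, and Trim31 and Trim40 had 0 counts.

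Chromatin RNA holds unspliced transcripts, whose reads can be assigned to transcripts annotated as retained_intron or processed_transcript. The part of unspliced RNA in the shares below was not tested. The median detected TRIM gene had 80.8% of its TPM in protein_coding transcripts, against 56.1% over all detected genes. For 13 detected TRIM genes no other kind of transcript is annotated. Among the 22 that have one, the median was 58.2%, against 50.4% over 7356 genes. Under 25% was called low, which held for 2 TRIM genes (5.71%) and for 13.1% of all detected genes, and under 50% for 6 TRIM genes and 42.1% of all.

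The 2 low genes were Trim26 and Trim28. Trim26, at 100 TPM in all, had 11.2% ± 4.42 in protein_coding transcripts, 44.8% ± 1.88 in the processed transcript Trim26-209 and 44% ± 3.65 in retained introns. Trim28 had 12.4% ± 4.87 in protein_coding transcripts and 71% ± 5.92 in retained introns. The RNA of both was mostly assigned outside the protein-coding annotation. Trim21 had 28.7% ± 3.97 in protein_coding transcripts, the rest in retained introns, so its protein-coding level was 17.5 TPM of 62.4 TPM. Trim3 had 32.7% ± 2.05 and Trim24 41.9% ± 8.17. Trim30a, by contrast, had 80.8% ± 2.75 in its protein_coding transcript Trim30a-201, with 202, 176 and 197 TPM in the 3 libraries, and Trim30c, Trim34a, Trim25, Trim30d and Trim56 had 100%, with no other kind annotated. For Trim30a that share depended on the quantification. The read-based tables gave Trim30a-201 a mean of 192 TPM of 330 TPM for the gene. They gave its retained_intron transcript Trim30a-203, of 314 bases, 119 TPM, against 38.8 TPM by alignment.

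**Figure D3:**
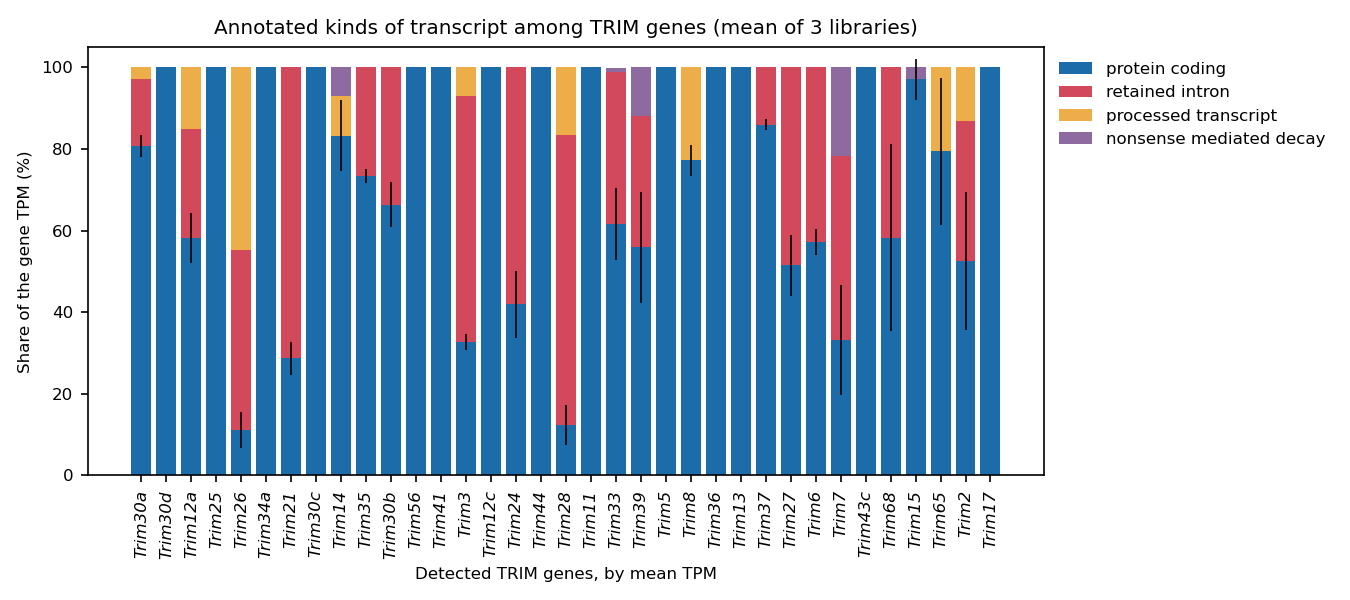
Share of each detected TRIM gene's TPM in protein_coding, retained_intron and other transcripts, means of 3 libraries, with the SD of the protein_coding share as bars. Trim26 (11.2%) and Trim28 (12.4%) lie below 25%, whereas 13 genes have protein_coding transcripts only in the annotation.

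The same libraries were quantified by the authors a second time directly from the reads. For 30 of the 35 detected TRIM genes the read-based mean was the higher of the pair, with a median ratio of 1.23, against 1.3 over all detected genes. Over 2-fold higher were 3 TRIM genes (8.57%), against 17.3% of all detected genes, and none was over 2-fold lower. Trim65 had a ratio of 3.2, its read-based values being 5.79, 7 and 5.18 TPM. Trim6 had 2.85, at 5.32, 12.8 and 8.28 TPM. Trim30b had 2.14, at 71.9, 51 and 41.1 TPM. Among members not detected, Trim34b had 3.28, 3.49 and 2.48 TPM and Trim43b 0.919, 2.3 and 1.39 TPM read-based, against alignment-based means of 0.59 and 0.107 TPM, and 69% and 64.6% of their words occur in other genes. The order of the 4 Trim30 genes by mean was the same in both, but in the read-based tables Trim30c (119, 49.8 and 59.9 TPM) and Trim30b overlapped, and Trim30b was the higher in replicate 2. The Trim30 genes had sums of 661 ± 145 TPM read-based and 499 ± 62.2 TPM alignment-based. Of the 68 genes, 17 share more than 10% of their 31-base words with another gene and 22 overlap an exon of another gene. Trim34a (68.5%), Trim5 (53.3%), Trim12c (48.1%) and Trim14 (36.4%, mostly with Nans on the opposite strand) are the detected ones most exposed after Trim43c, and their levels are uncertain to that extent.

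**Figure D4:**
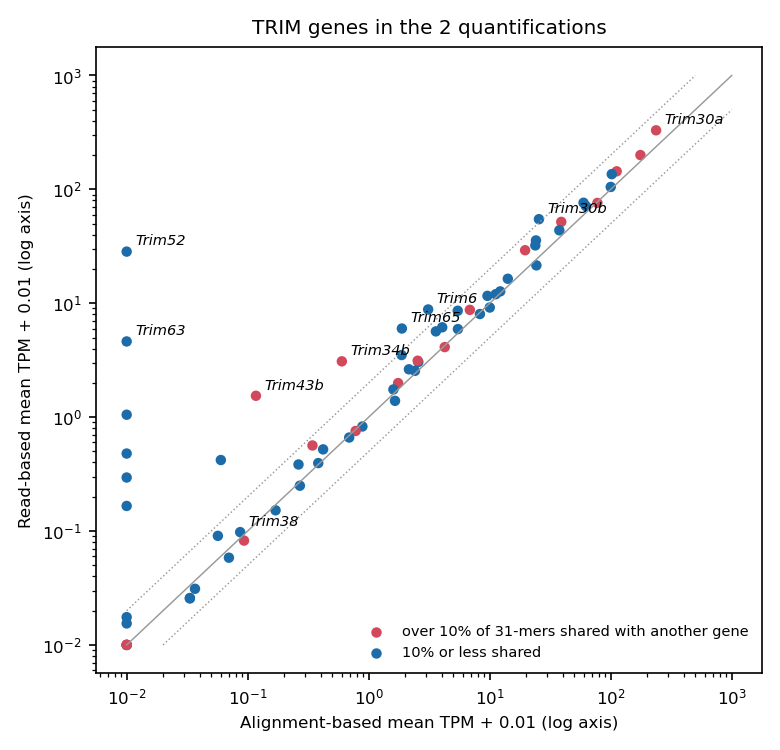
Mean TPM + 0.01 of the 68 TRIM genes in the read-based against the alignment-based tables (log axes, 3 libraries each); the solid line marks equality, dotted lines 2-fold, and red points genes sharing over 10% of their 31-base words. Of the 35 detected genes 30 lie above equality, with Trim65, Trim6 and Trim30b over 2-fold; Trim52 and Trim63 had 0 counts by alignment and 28.4 and 4.61 TPM from the reads.

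TRIM ligases work with E2 enzymes, and all 13 of the E2 list were detected, against 39.4% of all genes with a protein_coding transcript. The lists in this paragraph were chosen with earlier results of these data known, so their counts depend on that choice and were not tested. Ube2d3 and Ube2d2a, general partners of RING ligases, had 157 ± 22.1 and 75.2 ± 4.07 TPM. Ube2n, which builds the chains used in signalling, had 34.1 ± 5.8 TPM. Ube2l6, the ISG15-conjugating enzyme, had 24.4 ± 4.73 TPM (83.6 TPM in the read-based tables). Of 13 targets and effectors of TRIM proteins in RNA and DNA sensing, 12 were detected. The RIG-I gene Ddx58, target of TRIM25, had 332, 207 and 189 TPM, Ifih1, target of TRIM65, had 299, 121 and 199 TPM, and Zc3hav1, an antiviral RNA-binding protein that TRIM25 assists, had 242, 126 and 216 TPM. Each was highest in replicate 1, as were Trim25 and 42.7% of all genes among the highest 5%. Of the rest of this list, Isg15, Tab2, Tbk1 and Ticam1 were highest there too. Mavs, Tab3 and Tmem173 were highest in replicate 2, and Nlrp3, Vcp and Ikbkg in replicate 3. The TRIM30a target Tab2 had 59.9 ± 2.82 TPM, while Tab3 had 1.48, 5.98 and 0.92 TPM and so was not detected in replicate 3. In the read-based tables all 13 of these targets and effectors were detected. Of 10 TRIM-type proteins with other names, 4 were detected: Pml, the organiser of nuclear bodies, at 101 ± 21.7 TPM, Mid1 at 76 ± 20.1 TPM (368 TPM in the read-based tables), Mefv, the pyrin gene, at 52.1 ± 8.52 TPM, and Rnf135 at 14.9 ± 2.12 TPM (64.6 TPM in the read-based tables). Bspry, Fsd1, Triml1 and Triml2 had 0 counts by alignment, whereas Triml1 had 3.92 TPM and Triml2 1.93 TPM in the read-based tables, where 6 of the 10 were detected.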

How the data were processed

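RNA of the chromatin fraction was measured in 3 libraries of 1 group. The build was mm10 with GENCODE M21 annotation, per the file headers. No source used here names the programs or says whether strand was used. The authors deposited expected counts (estimated reads that need not be whole), TPM values (length-corrected, with the same total in each library) and, as a signal, credible bounds of the posterior mean TPM, which were not used in any statement. The authors made these once by alignment to the transcriptome (used as the main values) and once directly from the reads.

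From these values, means, SDs, detection (1 TPM or more in every library), shares of TPM by transcript kind, ratios of both quantifications, shared words of 31 bases and exon overlaps were computed with Python 3.11.15, numpy 2.4.6, pandas 2.3.3 and scipy 1.17.1. Paralogue pairs used log2(TPM + 1) and an exact sign-flip permutation test, which was checked on simulated data. An upper limit for 0 counts was 3 counts. That limit covers counting error only, and the labels mention no molecular identifiers. Expected counts per library ran from 13897176 to 19597343.

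Genes named with values were the 15 highest members, the chromosome 7 group, the small domain classes, the innate list, the 5 most and 5 least variable, those differing over 2-fold between quantifications, those with a protein-coding share under 25%, those at 0, and the 3 on either side of the detection threshold. The members and lists were chosen with earlier results of these data known. Domain classes follow textbook knowledge; Trim80 was left unclassified. No protein sequence was used here, and 15 members had no promoter window in the RefSeq table. Alternatives tried were other detection thresholds, a pseudocount of 0.1, CPM, read-based tables, posterior mean TPM, protein-coding transcripts alone, other folds and leaving out each replicate.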

Additional observations from a re-analysis of the deposited data

Results flagged for a closer look

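Signal appeared in the read-based tables for genes with 0 counts in every library of the alignment-based tables. Trim52 had 32.2, 24.9 and 28.1 TPM there in replicates 1, 2 and 3 (mean 28.4 TPM), all but 0.0437% of it in 1 processed transcript of 584 bases, while 1.61% of the 31-base words of Trim52 occur in another gene. Trim63 had 3.46, 5.96 and 4.39 TPM (mean 4.61 TPM), of which 86.1% was in 1 retained-intron transcript of 1152 bases, 13.9% in a processed transcript and none in a protein_coding transcript. The cause of either difference was not tested.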

How the results depend on the processing

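With 5 TPM in every library 22 TRIM genes were detected, and the COS-box, MATH or ARF and transmembrane classes had 0 detected members and the NHL or filamin class 1. The COS-box class had 2 detected members in the read-based tables, with posterior mean TPM, at 0.5 TPM, with a mean TPM of at least 1, with CPM and without replicate 2, so it ranged from 1 to 2 with a replicate left out. The MATH or ARF class had 2 at 0.5 TPM, with a mean TPM of at least 1, with CPM and without replicate 1 (1 to 2 with a replicate left out), and the transmembrane class had 2 with posterior mean TPM. With protein-coding transcripts alone the NHL or filamin class had 1, the median of all members was 1.24 TPM and the 5 highest members held 65.1% of the TPM. The median was 3.06 TPM in the read-based tables and 10 TPM over members with a mean of at least 1 TPM. The median protein-coding share was 98.6% over all members with any TPM. Members whose quantifications differed numbered 8 when 1 TPM in either sufficed and 1 at 3-fold. Trim28 minus Trim33 turned to -1.54 with protein-coding transcripts alone and to -1.62 with CPM, which is not corrected for length. Other pairs kept their direction but moved by over 1.5 times as a fold, on the log2 scale: Trim25 minus Trim21 (0.69) was 2.44 with protein-coding transcripts alone and 2.66 with CPM, Trim12c minus Trim12a (-2.46) was -1.68 and -1.54, Trim34a minus Trim34b (5.63) was 4.22 in the read-based tables, 6.83 with a pseudocount of 0.1 TPM and 6.49 with CPM, Trim30a minus Trim30b (3.24) was 2.60 in the read-based tables, and Trim30a minus Trim30c (2.04) was 3.00 with CPM. The cause of these changes was not tested. Single levels stayed within 1 SD for 31 of 35 genes with posterior mean TPM, 22 with protein-coding transcripts alone and 17 in the read-based tables. No paired analysis was possible because a single group leaves no second group to pair by replicate number. Differences between genes were taken within each library. Whether depth bears on calls near 1 TPM was not tested, and 3 libraries cannot give a sign-flip p below 0.25.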
